A study of Mus musculus with 24 samples.

Results

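Fpr1 and Fpr2 encode formyl peptide receptors 1 and 2, a pair of G protein-coupled receptors of phagocytes. They were taken by gene symbol as 2 of the 11590 genes in a table of RNA counts from mouse bone marrow-derived macrophages. The pair was chosen by these same counts, in which earlier results showed both genes higher with lysophosphatidic acid and lipopolysaccharide. Their own levels and changes are therefore given as descriptions, with standard errors and without p-values.

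The cells came from male C57BL/6 mice and were grown from bone marrow with M-CSF, the growth factor of macrophages, for 7 days. Mice were either wild-type (WT) or lacked GPR35, another G protein-coupled receptor (KO). Cells of each genotype were left untreated (Cont), or received 10 µM lysophosphatidic acid (LPA, a signalling phospholipid) or 10 ng/mL lipopolysaccharide (LPS, a bacterial cell wall component that activates TLR4) for 4 h. Each of the 6 groups had 4 libraries, 24 in all, and the question was whether LPA acts on transcript levels in macrophages through GPR35. The labels do not say how the deficient line was made, or whether replicates were separate mice, so the spread between libraries may be partly technical.

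Formyl peptide receptors sense peptides that start with formyl-methionine, which bacteria and mitochondria make and which are released from bacteria or damaged cells. In humans, FPR1 binds short formyl peptides tightly, whereas FPR2 also binds proteins and peptides of the host such as serum amyloid A, annexin A1 and cathelicidin. Both couple to inhibitory G proteins, whose βγ subunits activate phospholipase C beta and PI3K gamma. Cell migration, granule release and the oxidative burst of neutrophils, monocytes and macrophages follow. In mice the family has expanded, and some of its further members are expressed in the vomeronasal organ.

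The 2 genes lie head to head on chromosome 17. In GRCm38.p6, Fpr1 spans 17876471 to 17883939 on the minus strand and Fpr2 spans 17887824 to 17893952 on the plus strand, with 3884 bases between their start sites. Because the groups fell into the same tiers for both genes, the promoter windows from RefSeq (GRCm38.p6) are shown, from 250 bases before to 50 bases after each start. Capitals mark the motif matches described below, and each sequence reads 5′ to 3′ on the gene's own strand.
Fpr1, chr17:17883890-17884189 (-): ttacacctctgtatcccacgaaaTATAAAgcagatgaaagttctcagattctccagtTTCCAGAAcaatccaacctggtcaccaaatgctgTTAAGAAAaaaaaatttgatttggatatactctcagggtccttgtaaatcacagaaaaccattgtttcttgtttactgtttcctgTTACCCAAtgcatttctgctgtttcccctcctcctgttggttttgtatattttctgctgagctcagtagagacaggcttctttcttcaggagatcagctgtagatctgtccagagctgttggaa
Fpr2, chr17:17887574-17887873 (+): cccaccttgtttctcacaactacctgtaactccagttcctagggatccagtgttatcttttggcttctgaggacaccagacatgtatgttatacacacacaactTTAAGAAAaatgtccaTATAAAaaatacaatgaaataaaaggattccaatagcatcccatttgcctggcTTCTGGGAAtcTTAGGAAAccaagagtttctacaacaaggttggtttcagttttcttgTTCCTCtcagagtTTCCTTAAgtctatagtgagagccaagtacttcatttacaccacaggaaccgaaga

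Both windows were poor in G and C, at 40% for Fpr1 and 39.3% for Fpr2. Each held 3 matches to the C/EBP motif TTNNGNAA, searched on both strands, which 40.7% of the 32851 promoter windows in the table also held. One of these, TTAAGAAA, occurred in both promoters, 159 bases before the start of Fpr1 and 146 bases before that of Fpr2. Each also held 1 TATAAA, present in 13.6% of windows, at position -227 in Fpr1 and at -130 in Fpr2. The Fpr2 window held 1 match to the PU.1 core GAGGAA on the opposite strand, from -19 to -14 (28.3% of windows). It also held 1 match to the STAT motif TTCNNNGAA, from -77 to -69 (8.3% of windows). This STAT match and the C/EBP match after it stood 2 bases apart, and none of the matches in either window overlapped another. No match to the NF-kB motif (4.51% of windows), the AP-1 motif TGANTCA (7.81%), the IRF motif GAAANNGAA (8.56%) or the CRE motif TGACGTCA (1.79%) was in either window, which says only that these letters are not in these 300 bases.

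Untreated macrophages of both genotypes held little of either transcript. Fpr1 stood at 4.12, 3.77, 3.74 and 2.11 CPM (counts scaled to a common library size, with TMM factors) in the 4 WT Cont libraries, and at 3.48, 3.33, 3.08 and 4.39 CPM in the 4 KO Cont libraries. Behind these values were 84 to 198 counts in WT and 63 to 107 in KO. The WT and KO ranges overlapped, with means of 3.43 ± 0.903 and 3.57 ± 0.570 CPM (SD, n = 4 each).

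Fpr2 stood at 12.5, 12.6, 11.7 and 10.9 CPM in the WT Cont libraries. In the KO Cont libraries it stood at 10.6, 7.35, 10.4 and 15.9 CPM. Here too the genotypes overlapped, with means of 11.9 ± 0.794 and 11.1 ± 3.58 CPM, and the KO libraries were spread more widely. The log2 difference of KO from WT in untreated cells was 0.05 ± 0.25 (SE) for Fpr1 and -0.09 ± 0.20 for Fpr2. Neither gene was called, where 0.00863% of all genes were, a single gene, Gpr35 itself.

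With LPA, both receptor transcripts were higher in WT cells. Fpr1 reached 13.1, 18.8, 9.46 and 15.5 CPM in the 4 WT LPA libraries, a mean of 14.2 ± 3.96 CPM. Fpr2 reached 36.3, 51.4, 37.0 and 56.0 CPM, a mean of 45.2 ± 10.0 CPM. For each gene the lowest library with LPA lay above the highest untreated library. The lowest WT LPA library was replicate 3 for Fpr1 and replicate 1 for Fpr2.

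In KO cells LPA brought no such difference. Fpr1 stood at 3.07, 1.81, 4.04 and 3.14 CPM in the KO LPA libraries (3.01 ± 0.916 CPM), and Fpr2 at 10.5, 4.86, 8.37 and 10.5 CPM (8.55 ± 2.65 CPM). All 8 of these values lay below every WT LPA value of the same gene, and the ranges overlapped those of untreated KO cells. Replicate 2 was the lowest of the 4 KO LPA libraries for both genes.

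With LPS, Fpr1 and Fpr2 were high in both genotypes. Fpr1 stood at 249.2, 262.5, 246.8 and 199.9 CPM in WT and at 253.1, 190.4, 212.6 and 199.2 CPM in KO. Fpr2 stood at 592.9, 603.7, 602.9 and 533.1 CPM in WT and at 583.0, 480.4, 490.2 and 525.0 CPM in KO. WT and KO overlapped for both genes, and no LPS library came near any library without LPS. Means were 239.6 ± 27.4 (WT) and 213.8 ± 27.7 CPM (KO) for Fpr1, and 583.2 ± 33.7 and 519.7 ± 46.4 CPM for Fpr2.

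**Figure D1:**
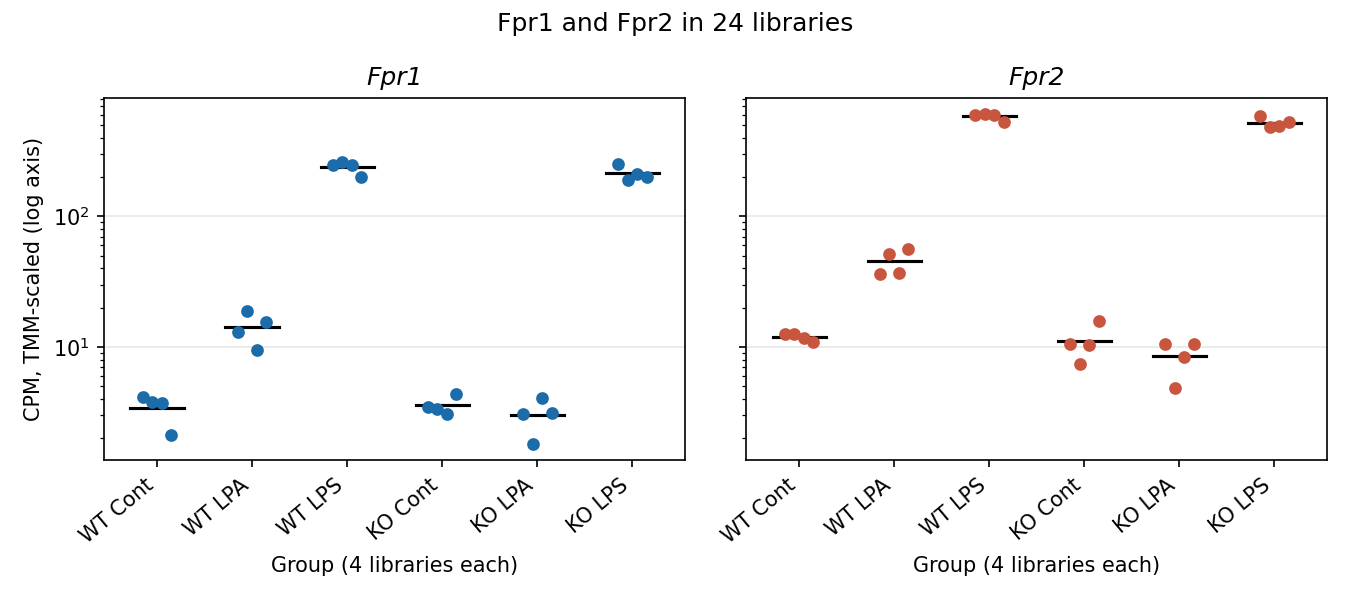
Fpr1 (left) and Fpr2 (right) in each of the 24 libraries, in TMM-scaled CPM on a log axis, with points for libraries in the order of their replicate numbers and a bar for each group mean. WT LPA stands alone between the 3 low groups and the 2 LPS groups, while KO LPA lies with the untreated libraries.

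Ordered by mean, the groups formed 3 tiers that were the same for both genes. The lowest tier held KO LPA, WT Cont and KO Cont for Fpr1, and KO LPA, KO Cont and WT Cont for Fpr2, and neighbours within it overlapped. WT LPA overlapped neither the tier below nor the tier above. KO LPS and WT LPS, at the top, overlapped each other. The WT LPA mean was 5.93% of the WT LPS mean for Fpr1 and 7.75% for Fpr2.

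Expressed as changes, LPA in WT gave a log2 change of 2.04 ± 0.20 (SE) for Fpr1, or 4.14-fold, and 1.92 ± 0.18 for Fpr2, or 3.79-fold. By size of rise they ranked 21 and 27 among 11590 genes. Both were called higher (edgeR, adjusted p below 0.05), as were 23.5% of all genes, and 21.1% were called lower; since this contrast helped choose the pair, nothing is read from that count. By replicate number, the log2 difference of the LPA from the untreated library was 1.65, 2.30, 1.32 and 2.84 for Fpr1 and 1.54, 2.02, 1.66 and 2.35 for Fpr2, so all 4 WT pairs showed it.

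LPA in KO gave -0.24 ± 0.29 for Fpr1 and -0.37 ± 0.22 for Fpr2. Neither was called, where 1.56% of genes were called higher and 1.06% lower. By replicate number Fpr1 differed by -0.17, -0.85, 0.38 and -0.47, and Fpr2 by -0.01, -0.59, -0.31 and -0.60. Thus 7 of these 8 differences were below 0, and all 8 were below the smallest difference seen in WT. With the replicate number as a block, as the same-numbered libraries allow, 554 in place of 304 genes were called for LPA in KO, and Fpr1 and Fpr2 kept -0.24 and -0.37 and were still not called.

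LPS in WT gave 6.11 ± 0.21 for Fpr1 (69.8-fold, rank 26 by rise) and 5.61 ± 0.21 for Fpr2 (49.0-fold, rank 37). In KO it gave 5.89 ± 0.22 (59.9-fold, rank 23) and 5.54 ± 0.21 (47.0-fold, rank 35). Both genes were called higher in both genotypes, but so were 40.6% of genes in WT and 39.3% in KO, and 43.6% and 43.0% were called lower. These rises also helped choose the pair, so nothing is read from the calls or ranks. Scaled by library totals instead of TMM, the same changes were 5.56 and 5.06 in WT and 5.40 and 5.04 in KO, a scaling under which the median gene moved by -0.59 in WT and -0.55 in KO. The LPA and LPS comparisons of a genotype share its untreated libraries.

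Set directly against each other, KO and WT cells under LPA differed by -2.22 ± 0.23 for Fpr1 and by -2.39 ± 0.20 for Fpr2, on the log2 scale. These are levels 4.72-fold and 5.28-fold lower in KO. Both were called, as were 50.3% of all genes in this comparison. The effect of LPA in KO minus that in WT, the interaction, was -2.28 ± 0.35 for Fpr1 and -2.30 ± 0.28 for Fpr2, the 21st and 20th most negative of all genes. Both were called, beside 28.5% of genes. The pair was chosen with these differences known, so nothing is read from these calls or ranks.

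Under LPS the KO differed from WT by -0.16 ± 0.16 for Fpr1 and -0.17 ± 0.17 for Fpr2, and neither was called, beside 2.85% of genes. The KO mean was 89.2% of the WT mean for Fpr1 and 89.1% for Fpr2. The interaction with LPS was -0.22 ± 0.30 and -0.07 ± 0.26, and 0% of genes were called by edgeR (698 genes had an unadjusted p below 0.05, and DESeq2 called 17). These standard errors leave room for a modest difference in either direction.

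**Figure D2:**
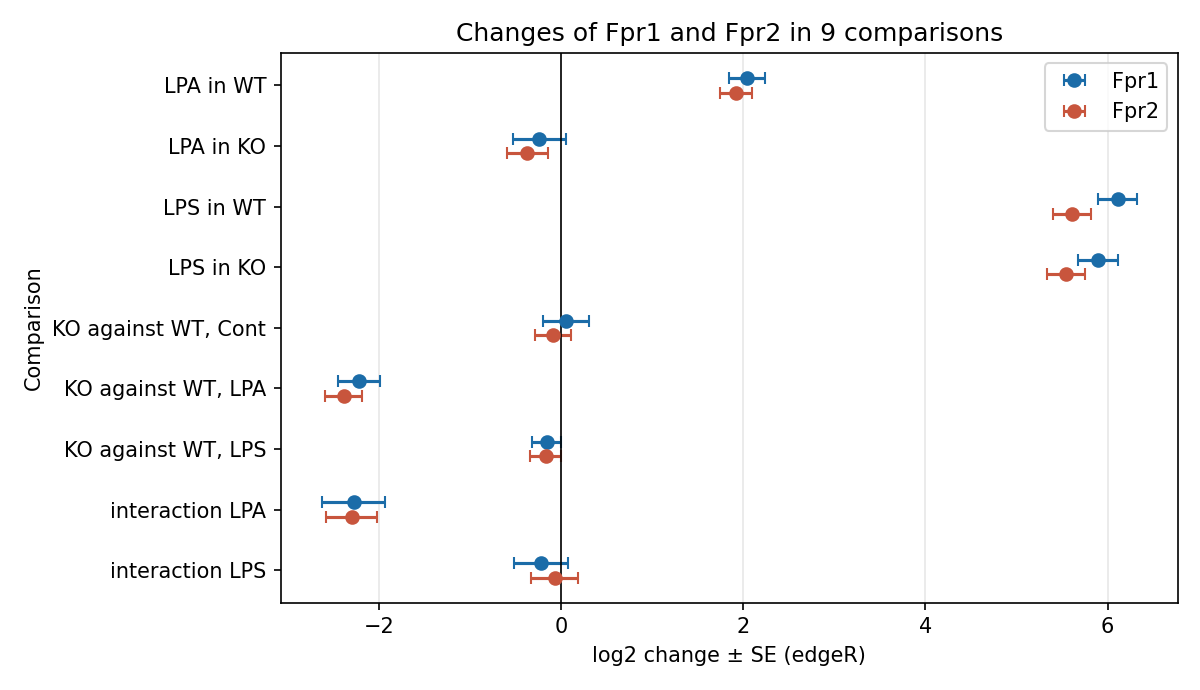
The log2 change of Fpr1 and Fpr2 in each of 9 comparisons, with bars of 1 standard error from edgeR. The interaction is the treatment effect in KO minus that in WT; for LPA it is -2.28 and -2.30, and for LPS its bars span 0.

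Gpr35 checked the genotype labels. It had 54 to 133 counts in the WT Cont and WT LPA libraries and 8 to 17 in WT LPS, against 0 to 5 in the KO libraries, with 0 in all 4 KO LPS libraries. WT libraries held 32.0 to 46.7 M counts from 2 sequencing lanes each, and KO libraries held 15.2 to 21.5 M from 1 lane. Genotype, lane and depth therefore cannot be told apart in a comparison of KO with WT. Each treatment was compared within a genotype, between libraries of the same number of lanes.

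Per base of transcript, Fpr2 was the more abundant of the pair in every library. The deposited lengths were 1323 bases for Fpr1 and 1296 for Fpr2, and the ratio of Fpr2 to Fpr1 in CPM per kilobase ran from 2.12 to 5.29 with a median of 2.81. In WT Cont the ratio was 3.09, 3.41, 3.18 and 5.29, a mean of 3.74 ± 1.04. In WT LPA it was 3.33 ± 0.607, in KO Cont 3.13 ± 0.634 and in KO LPA 2.94 ± 0.642. These 4 groups overlapped.

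With LPS the ratio narrowed to 2.5 ± 0.161 in WT, from 2.35 to 2.72, and to 2.49 ± 0.169 in KO, from 2.35 to 2.69. WT LPS lay below all 4 WT Cont libraries, whereas KO LPS overlapped KO Cont, which ran from 2.25 to 3.71. Within groups the 2 genes tended to deviate together: in 21 of 24 libraries both stood on the same side of their group means. Values of 1 library share its scaling, and their part in this was not tested.

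**Figure D3:**
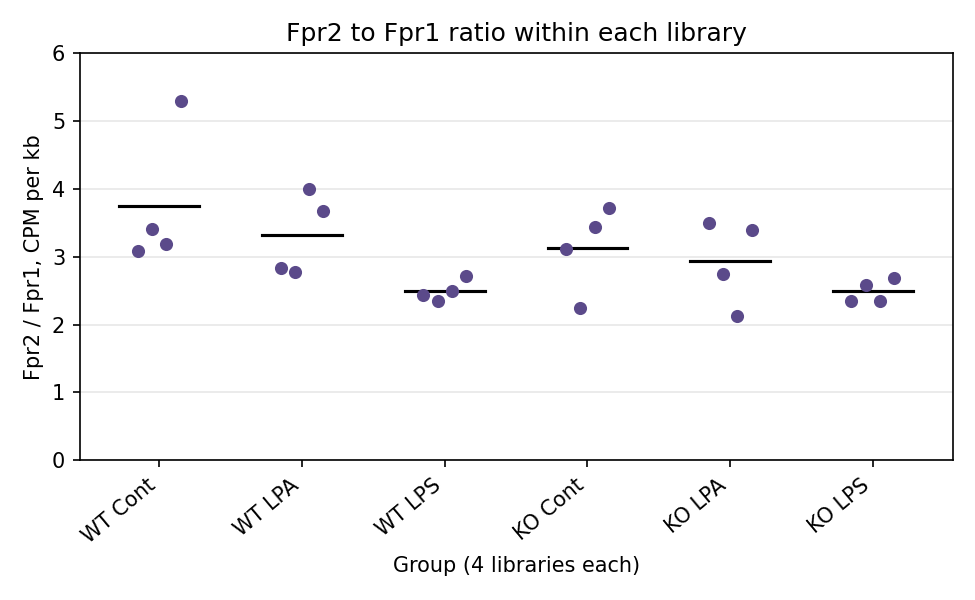
The ratio of Fpr2 to Fpr1 within each library, in CPM per kilobase of deposited transcript length, with a bar for each group mean. Every library lies above 2, and the 8 LPS libraries lie between 2.35 and 2.72.

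A further family member, Fpr3, was in the table at a far lower level. It had 55 to 73 counts in WT LPS and 17 to 36 in KO LPS, or 2.28 ± 0.269 and 1.90 ± 0.580 CPM. In the other 4 groups it had 0 to 9 counts. Every gene of the deposited table reached 0.5 CPM in at least 6 libraries, and Fpr3 did so only with LPS, so it had to be higher there to be listed at all. Its counts came to 0.391% of those of Fpr2 in WT LPS and 0.367% in KO LPS. In GENCODE transcripts, 74 of the 1083 stretches of 51 bases (the read length) in Fpr2 also occur in Fpr3, so the reads of these 2 genes may be partly shared. Fpr1 shares none of its 1274 such stretches with any of the other family members. Of the 7 family genes listed, Fpr-rs3, Fpr-rs4, Fpr-rs6 and Fpr-rs7 were not analysed here.

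Of 10 genes for host ligands and for enzymes that add or remove the formyl group, 7 were measured. With LPA in WT 2 rose and none fell, in KO none was called, and with LPS 4 rose and 3 fell in each genotype. These shares are near those of all genes, 23.5% higher with LPA in WT and, with LPS in WT, 40.6% higher and 43.6% lower. With LPA 21.1% of all genes were called lower in WT, and 1.56% higher and 1.06% lower in KO. With LPS in KO 39.3% were called higher and 43.0% lower. The median log2 change with LPA in WT was 0.04, against -0.01 over all genes. Saa3, a serum amyloid A gene whose human relatives include known FPR2 ligands, stood at 19.2 ± 5.45 CPM in WT Cont and 48.4 ± 14.4 CPM in WT LPA, a log2 change of 1.33 ± 0.35 (edgeR adjusted p = 0.0044). Its interaction with LPA was -1.52 ± 0.50 (edgeR adjusted p = 0.03), and with LPS it rose by 6.31 ± 0.41 in WT (edgeR adjusted p = 1e-11).

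App, whose amyloid beta fragment can bind FPR2, rose with LPA in WT by 0.26 ± 0.05 (edgeR adjusted p = 0.00038). Anxa1, the gene of the pro-resolving FPR2 ligand annexin A1, was measured at 569 ± 73.2 CPM in WT Cont and 667 ± 123 CPM in WT LPA and was not called (0.23 ± 0.19). With LPS in WT it rose by 0.80 ± 0.19 (edgeR adjusted p = 0.00067). Camp, the cathelicidin gene, rose by 0.65 ± 0.25 with LPS (edgeR adjusted p = 0.022). Hebp1, which yields a peptide ligand of the human receptors, fell by 1.49 on the log2 scale with LPS in WT (edgeR adjusted p = 1e-11). The mitochondrial formylation gene Mtfmt (-0.47 ± 0.11) and the deformylase gene Pdf (-0.80 ± 0.08) also fell with LPS in WT (edgeR adjusted p = 0.0003 and 4.2e-09).

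Downstream of the receptors, 13 G protein and phospholipase C beta genes were measured. With LPA in WT 5 rose and 1 fell (median 0.17, all genes -0.01), beside 23.5% and 21.1% of all genes. The other 7 were not called. With LPA in KO none was called, beside 1.56% and 1.06% of all genes. With LPS 8 rose and 3 fell in either genotype, beside 40.6% and 43.6% of all genes in WT and 39.3% and 43.0% in KO. Gng12, a gamma subunit gene, rose from 126 ± 1.84 to 163 ± 9.37 CPM with LPA in WT (0.37 ± 0.05, edgeR adjusted p = 2e-05), and its interaction was -0.56 ± 0.08 (edgeR adjusted p = 5.1e-05). Gnb1, a beta subunit gene, rose by 0.29 ± 0.06 (edgeR adjusted p = 0.00065). Gna15, the haematopoietic Gq-family alpha subunit gene, rose by 0.51 ± 0.13 (edgeR adjusted p = 0.0033). Gng2 went the other way, from 148 ± 9.02 to 95.4 ± 9.36 CPM, a fall by 0.64 (edgeR adjusted p = 1.4e-06). Gnai3, an inhibitory alpha subunit gene, rose by 0.17 ± 0.05 (edgeR adjusted p = 0.0093).

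Of 14 measured genes of the PI3K gamma, Rac and Src-family relay, 8 rose and 1 fell with LPA in WT (median 0.19, all genes -0.01), beside 23.5% and 21.1% of all genes. None was called with LPA in KO, where 1.56% of all genes were called higher and 1.06% lower. The LPA effect was lower in KO by the interaction test for 9 of the 14 and higher for 0, beside 15.8% and 12.7% of all genes. Whether the list differs from other genes was not tested. By the same test, 3 of the 13 G protein and phospholipase C beta genes were lower and 1 was higher. Of the 7 ligand and formyl group genes, 2 were lower and 0 higher. Pik3r5, the p101 regulatory subunit of PI3K gamma, rose from 347 ± 22.2 to 582 ± 88.1 CPM (0.74 ± 0.10, edgeR adjusted p = 5.3e-06), and the catalytic subunit gene Pik3cg rose by 0.43 ± 0.09 (edgeR adjusted p = 0.00092). Lyn, a Src-family kinase gene of myeloid cells, rose by 0.32 ± 0.08 with LPA (edgeR adjusted p = 0.0021). Rac2, the haematopoietic Rac GTPase of the oxidase, rose by 1.78 ± 0.08 with LPS (edgeR adjusted p = 3.2e-15) but was not called with LPA in WT (0.19 ± 0.08, edgeR adjusted p = 0.057).

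Among 13 genes that desensitise such receptors, 1 rose and 3 fell with LPA in WT, a median change of 0.01 beside -0.01 for all genes, of which 23.5% rose and 21.1% fell. Rgs10, a regulator of G protein signalling that shortens the active state of G proteins, fell from 179 ± 7.12 to 111 ± 20.5 CPM with LPA in WT, by 0.68 (edgeR adjusted p = 2.9e-06), and its interaction was 0.63 ± 0.12 (edgeR adjusted p = 0.00086). Rgs18 fell with LPA in both genotypes, by 0.45 in WT and 0.66 in KO (edgeR adjusted p = 9.5e-05 and 5.5e-05). Rgs16 rose with LPA in WT by 1.07 ± 0.34 (edgeR adjusted p = 0.013), from a level of 0.378 ± 0.128 CPM, and the receptor kinase gene Grk6 fell by 0.26 (edgeR adjusted p = 0.0024). With LPS in WT, 6 rose and 5 fell, beside 40.6% and 43.6% of all genes. Arrb1, one of the arrestin genes, fell by 1.5 with LPS in WT (edgeR adjusted p = 4.4e-14), while Arrb2, which had 253 ± 9.77 CPM in WT Cont, rose by 0.29 ± 0.05 (edgeR adjusted p = 3.8e-05).

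The NADPH oxidase makes the superoxide that phagocytes release on formyl peptide contact. Of its 7 measured genes, 3 rose with LPA in WT (median 0.12, all genes -0.01), beside 23.5% of all genes, and 1 rose in KO, beside 1.56%. With LPS in WT 5 rose and 1 fell, beside 40.6% and 43.6%. Cybb, the catalytic subunit, rose from 2510 ± 147 to 3400 ± 329 CPM with LPA in WT (0.44 ± 0.09, edgeR adjusted p = 0.00058). Ncf4, the p40 subunit, rose by 0.56 ± 0.08 (edgeR adjusted p = 1.2e-05). Their interactions were -0.58 ± 0.13 and -0.50 ± 0.11 (edgeR adjusted p = 0.0025 and 0.0026). Ncf1, the p47 subunit, rose in both genotypes, by 0.24 ± 0.05 in WT and 0.18 ± 0.05 in KO (edgeR adjusted p = 0.00057 and 0.05). The KO value lies just below 0.05 before rounding, so that call is marginal.

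Of 17 other chemoattractant receptor genes measured, 5 rose and 5 fell with LPA in WT (median -0.25, all genes -0.01), shares near the 23.5% and 21.1% of all genes. None was called with LPA in KO, beside 1.56% of all genes higher and 1.06% lower. With LPS in WT 7 rose and 9 fell, beside 40.6% and 43.6% of all genes. Fpr1 and Fpr2, chosen with their rises known, had the largest log2 rises of the 19 receptors, themselves included. This held with LPA in WT and with LPS in both genotypes. Ccrl2, an atypical receptor that presents chemerin, came next: it rose from 16.9 ± 1.30 to 36.6 ± 6.15 CPM with LPA in WT (1.12 ± 0.12, edgeR adjusted p = 4.2e-07) and by 4.35 ± 0.13 with LPS (edgeR adjusted p = 6e-18). Its interaction with LPA was -0.92 ± 0.17 (edgeR adjusted p = 0.00079). C5ar1, the receptor of complement C5a, rose by 0.62 ± 0.09 with LPA in WT (edgeR adjusted p = 2.9e-05) and by 1.62 ± 0.10 with LPS (edgeR adjusted p = 2.5e-13). P2ry2, a nucleotide receptor, rose by 0.87 ± 0.14 with LPA (edgeR adjusted p = 7.9e-05).

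Cxcr4, the receptor of CXCL12, moved in the opposite direction. It fell with LPA in WT from 169 ± 32.8 to 101 ± 50.4 CPM, by 0.74 (edgeR adjusted p = 0.011), had 0.75 ± 0.22 in KO (edgeR adjusted p = 0.091), and an interaction of 1.49 ± 0.32 (edgeR adjusted p = 0.0023). With LPS in WT it fell by 5.62 (edgeR adjusted p = 2.7e-13). The C5a receptor gene C5ar2 fell by 0.32 and the chemokine receptor gene Cxcr3 by 0.87 with LPA in WT (edgeR adjusted p = 0.033 and 0.0054).

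Per kilobase of transcript, the place of the formyl peptide receptors among these 19 genes shifted with treatment. In WT Cont, Fpr2 at 9.18 CPM per kilobase ranked 8th and Fpr1 at 2.59 ranked 16th, while C3ar1, the complement C3a receptor, led at 326. In WT LPA Fpr2 ranked 7th (34.9 CPM per kilobase) and Fpr1 10th (10.7). In WT LPS Fpr2 ranked 2nd at 450.0 CPM per kilobase, below C3ar1 at 591, and Fpr1 ranked 4th at 181, below C5ar1 at 339. In KO LPA, in contrast, they ranked 11th and 16th.

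**Figure D4:**
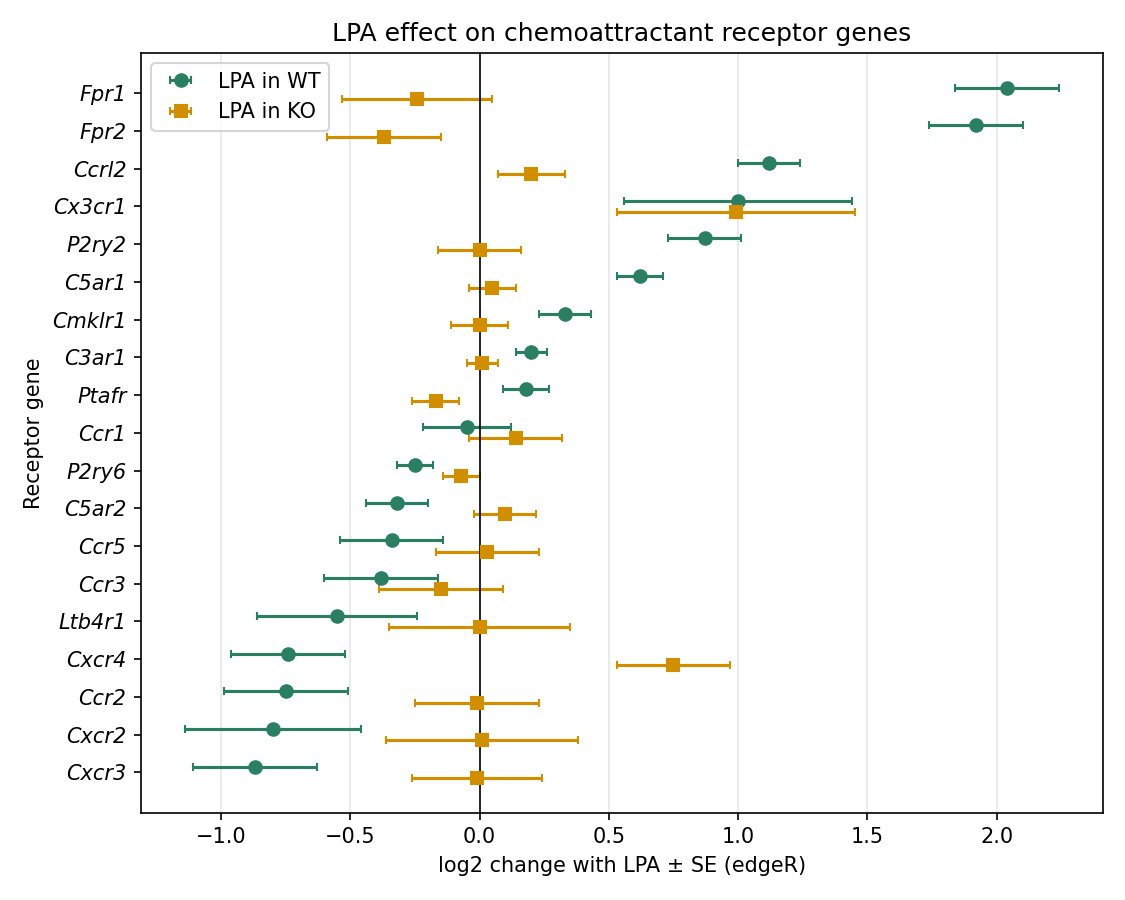
The log2 change with LPA in WT (circles) and in KO (squares) for Fpr1, Fpr2 and the 17 other measured chemoattractant receptor genes, with bars of 1 standard error from edgeR. Fpr1 and Fpr2 stand highest in WT and lowest in KO. In KO none of the 19 was called, beside 1.56% of all genes called higher and 1.06% lower.

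Of 15 measured sensors of other microbial products, 8 rose and 2 fell with LPA in WT (median 0.30, all genes -0.01), beside 23.5% and 21.1% of all genes. In KO 1 fell with LPA, beside 1.06% of all genes. With LPS 11 rose and 3 fell in either genotype, beside 40.6% and 43.6% of all genes in WT and 39.3% and 43.0% in KO. For 9 the LPA effect was lower in KO by the interaction test, beside 15.8% of all genes, and here too the list was not tested against other genes. By the same test, 0 of the 13 desensitisation genes were lower and 1 was higher. Of the 7 oxidase genes 2 were lower and 1 higher. Among the 17 other chemoattractant receptor genes 4 were lower and 1 higher, beside 12.7% of all genes higher. Clec4e, the mycobacterial glycolipid receptor Mincle, rose from 203 ± 15.4 to 795 ± 231 CPM with LPA in WT (1.97 ± 0.16, edgeR adjusted p = 1.6e-08), close in size to Fpr1 and Fpr2, with an interaction of -2.02 ± 0.22 (edgeR adjusted p = 5.2e-06). Cd14, the LPS co-receptor, rose by 1.24 ± 0.13 and Nod2, a sensor of muramyl dipeptide, by 1.08 ± 0.12 (edgeR adjusted p = 7e-07 and 1.4e-06). Tlr2, a lipopeptide receptor, rose by 0.66 ± 0.09 (edgeR adjusted p = 1.3e-05). Tlr1, its partner, rose by 0.53 ± 0.09 in WT and fell by 0.42 in KO (edgeR adjusted p = 6.2e-05 and 0.0098). Clec7a, the beta-glucan receptor dectin-1, fell by 0.68 in WT (edgeR adjusted p = 0.00012).

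Of 12 transcription factor genes of the myeloid lineage, 3 rose and 3 fell with LPA in WT, a median of -0.08 beside -0.01. These shares are near the 23.5% and 21.1% of all genes. By the interaction test the LPA effect was higher in KO for 3 and lower for 2, beside 12.7% and 15.8% of all genes. Spi1, which encodes PU.1, rose by 0.40 ± 0.08 (edgeR adjusted p = 0.00057). The C/EBP family divided. Cebpb and Cebpd rose by 0.55 ± 0.13 and 0.83 ± 0.20 with LPA in WT (edgeR adjusted p = 0.0027 and 0.0026). Cebpa fell from 129 ± 10.1 to 87.7 ± 18.6 CPM, by 0.56 (edgeR adjusted p = 0.00053), and to 10.4 ± 1.08 CPM with LPS (edgeR adjusted p = 1.2e-16). Cebpd rose with LPS in WT by 3.51 ± 0.21 (edgeR adjusted p = 1e-12), to 107 ± 11.9 CPM. The interaction with LPA was called for Cebpa (0.93 ± 0.16, edgeR adjusted p = 0.00036) and Cebpd (-1.02 ± 0.31, edgeR adjusted p = 0.021), and not for Cebpb (-0.22 ± 0.20, edgeR adjusted p = 0.42).

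Each receptor gene was the other's closest match across the 24 libraries. Likeness was the root mean square difference (RMS) of log2 CPM, each gene centred on its own mean, and between Fpr1 and Fpr2 it was 0.300. For Fpr1 the next were Tnf, a cytokine gene (0.398), Acod1, which makes itaconate (0.407), the chemokine gene Ccl4 (0.446), the activation marker gene Cd69 (0.463) and Fscn1, an actin-bundling gene (0.469). For Fpr2 they were Cd69 (0.369), Tnf (0.421), the chemokine gene Ccl5 (0.460), the survival gene Bcl2a1a (0.461) and Fscn1 (0.461). Bcl2a1a has near-identical copies, so its counts are uncertain.

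With LPA in WT the log2 change was 1.93 for Tnf and 2.53 for Acod1, beside 2.04 for Fpr1 and 1.92 for Fpr2. It was 1.19 for Cd69, 1.01 for Ccl4, 0.91 for Ccl5, 1.37 for Fscn1 and 1.32 for Bcl2a1a. With LPA in KO all 7 of these genes lay between -0.90 and -0.09. By the second measure, Pearson's r over the same libraries, which ignores the size of a change, the 6 highest for Fpr1 were Fpr2, Tnip1, Irak3, Ehd1, Gpd2 and Nfkb1 (0.994 to 0.995). For Fpr2 they were Marcksl1, Ikbke, Fpr1, Pilra, Gpd2 and Rnf19b (0.994 to 0.996). The genes other than the pair rose with LPS in WT by only 1.59 to 3.61. All these values share the contrast of LPS with the other libraries and carry no test.

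**Figure D5:**
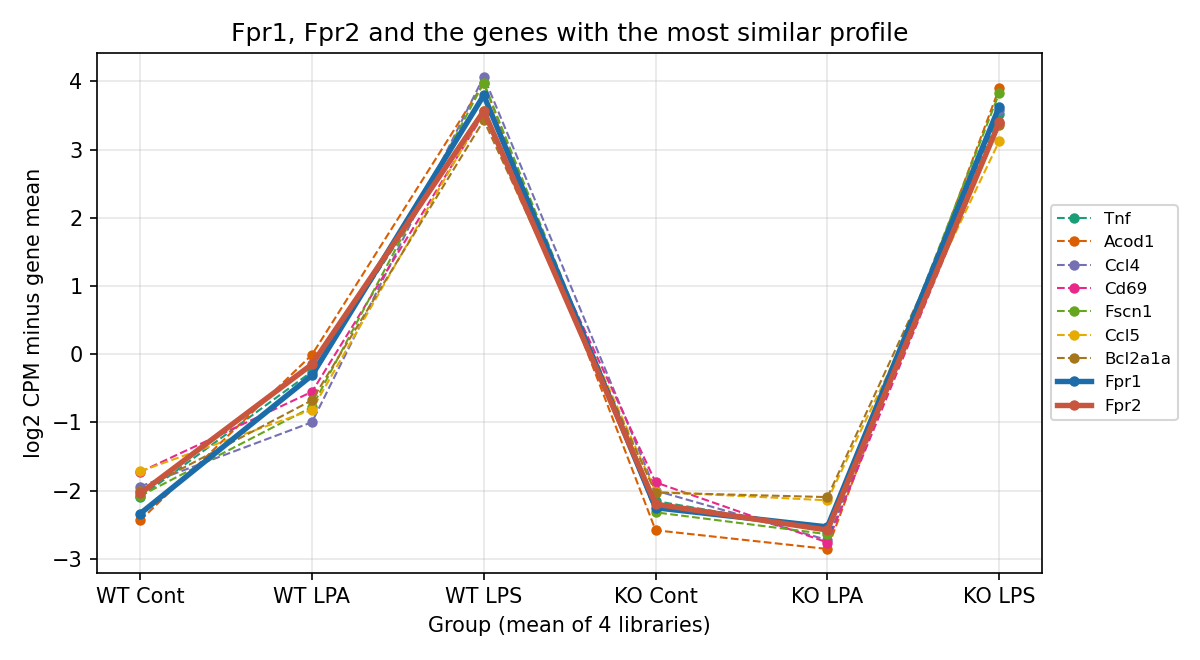
The mean log2 CPM of each group minus the gene's own mean over 24 libraries, for Fpr1 and Fpr2 (thick lines) and the 7 genes of smallest RMS difference (dashed lines). All 9 genes are high with LPS in both genotypes, and in WT LPA Fpr1 and Fpr2 lie near Tnf and Acod1 and above the other 5.

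Along chromosome 17, 8 of the 29 genes annotated within 500 kb of either receptor were in the table, the pair and Fpr3 included. Spaca6, which encodes a sperm membrane protein, had 102 to 140 counts in WT Cont, 173 to 346 in WT LPA and 779 to 920 in WT LPS. It rose by 1.30 ± 0.14 with LPA in WT (edgeR adjusted p = 7.6e-07) and by 3.54 ± 0.14 with LPS in WT (edgeR adjusted p = 3.4e-16). With LPA in KO it had -0.06 ± 0.19 and an interaction of -1.37 ± 0.23 (edgeR adjusted p = 0.00034). Its annotated span, 17826085 to 17843010, overlaps that of the hyaluronan synthase gene Has1, 17833691 to 17855589. How reads in the overlap were assigned is not given in the sources used here.

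Has1 had 27 to 78 counts in WT LPS and 9 to 21 in KO LPS, and 0 to 3 in every library without LPS. Vmn2r90, a vomeronasal receptor gene, had 30 to 47 and 16 to 20 counts with LPS, and 0 to 2 in every other library. Like Fpr3, these 2 genes reached 0.5 CPM only with LPS. Lnpep, an aminopeptidase gene, rose by 0.23 ± 0.09 with LPA in WT (edgeR adjusted p = 0.036) and by 1.37 ± 0.09 with LPS in WT (edgeR adjusted p = 8.3e-13). Riok2, a kinase gene, was not called with LPA in WT (0.17 ± 0.08, edgeR adjusted p = 0.1) and rose by 0.45 ± 0.08 with LPS in WT (edgeR adjusted p = 2.9e-05).

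The labelled cell type was checked against its markers. All 10 macrophage markers were measured, with a summed level of 31800 to 39100 CPM in libraries without LPS and 44300 to 48000 CPM with LPS. The largest part was Lyz2, given here for its level, at 24600 ± 1090 CPM in WT Cont and 28600 ± 547 CPM in WT LPS. With LPS, 6 of the 10 were called higher and 4 lower in either genotype. Of all genes, 40.6% were higher and 43.6% lower in WT, and 39.3% and 43.0% in KO. Adgre1, which encodes F4/80, had 2960 ± 187 CPM, and Csf1r, the M-CSF receptor, had 4860 ± 282 CPM in WT Cont. In WT LPS Adgre1 was higher, at 6870 ± 624 CPM, and Csf1r lower, at 3370 ± 166 CPM. With LPA in WT 2 of the 10 rose and 2 fell, beside 23.5% and 21.1% of all genes. Among them were Cd14 and Mrc1, the mannose receptor gene, which fell by 0.88 (edgeR adjusted p = 1.1e-07).

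Neutrophils express both receptors strongly, so granulocyte markers are given beside them. Of 16 such genes 14 were measured, Ly6g and Il1r2 not being analysed here. Their summed level was 464 to 705 CPM in WT Cont, 420 to 465 CPM in WT LPA, 452 to 784 CPM in KO Cont and 375 to 639 CPM in KO LPA. It was 644 to 851 CPM in WT LPS and 564 to 909 CPM in KO LPS. With LPA in WT none of the 14 rose and 1 fell, beside 23.5% and 21.1% of all genes. The 1 was Ltf, the lactoferrin gene (-0.64 ± 0.25, edgeR adjusted p = 0.042). With LPS in WT 4 rose and 7 fell, beside 40.6% and 43.6% of all genes, with a median of -0.49 (all genes -0.04). The other 3 were not called, S100a8 and Ngp among them. Csf3r, the G-CSF receptor gene, went from 143 ± 4.5 to 308 ± 27.3 CPM, up by 1.11 ± 0.09 (edgeR adjusted p = 1.5e-10). Mpo, the myeloperoxidase gene, went down to 0.353 ± 0.0489 CPM (edgeR adjusted p = 0.0012).

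Inflammatory monocyte markers, 8 of 8 measured, summed to 91.6 to 102 CPM in WT Cont, 111 to 138 CPM in WT LPA and 571 to 776 CPM in WT LPS. In KO they summed to 74.0 to 130 CPM (Cont), 63.4 to 105 CPM (LPA) and 383 to 512 CPM (LPS). With LPA in WT 3 rose and 1 fell, beside 23.5% and 21.1% of all genes. Vcan, the gene of the matrix proteoglycan versican, rose by 1.39 ± 0.20 (edgeR adjusted p = 2.6e-05), Ms4a4c by 0.68 ± 0.19 (edgeR adjusted p = 0.0072) and Treml4 by 1.59 ± 0.25 (edgeR adjusted p = 4e-05). The monocyte chemokine receptor gene Ccr2 fell by 0.75 (edgeR adjusted p = 0.015). This sum moved with Fpr1 and Fpr2, and its part in their levels was not tested.

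Other lineages left few markers. Of the dendritic cell markers 1 of 8 was measured (Kmo, 0.569 to 4.06 CPM), of T, NK and B cell markers 1 of 8 (Cd4, 26.6 to 96.6 CPM), and of mast cell and basophil markers 1 of 6. That one was Hdc, the histamine-forming enzyme, at 44.0 to 49.5 CPM in WT LPS and 0.905 to 4.15 CPM without LPS. Stromal and endothelial markers, 5 of 7 measured, summed to 5.66 to 27.1 CPM. In bulk RNA such as this, fewer cells of a type and less RNA per cell cannot be told apart.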

How the data were processed

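Gene counts as deposited by the authors were used for 24 libraries. Per the labels' protocols, these were stranded mRNA libraries read as paired ends of 51 bases, and per the submitters' processing notes reads were aligned with STAR 2.5.2a to mm10. How reads were counted, with which strand setting and annotation, is not given in the sources used here. The table held 11590 genes (9 without a symbol), with at least 170 counts each, and each reached 0.5 CPM in at least 6 libraries. Each gene's length came from the deposited table. Library totals ran from 15167683 to 46697165 counts. In 36 replicate pairs the chi-square per degree of freedom was 4.09 to 77.2, so none was a copy.

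CPM, log2 changes and tests came from edgeR 4.0.16 in R 4.3.3 (TMM, factors 0.739 to 1.18; robust quasi-likelihood F test; 1 fit of 6 groups; 18 residual degrees of freedom), with Benjamini-Hochberg adjustment over all 11590 genes and calls below 0.05. The standard error is the log2 change divided by the root of F. The fit was tested on simulated data. Fpr1 and Fpr2, the gene lists and the tests were chosen with earlier results of these data known. The 16 lists held 176 entries, 141 of them measured. Named genes were, from each list, up to 6 measured members with the smallest adjusted p in WT with LPA and up to 6 with LPS (a selection of these is printed, and 1 is not reported here), the 6 genes most like each receptor by RMS difference of centred log2 CPM (prior count 2) and by Pearson's r, measured genes within 500 kb, and Gpr35.

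Same-numbered libraries of different treatments deviated together in KO (correlations of 0.114 to 0.772 in 12 pairs) and in 10 of 12 WT pairs above 0.1 (0.069 to 0.626). From the data, the numbers were taken to pair the libraries for LPA, and not for LPS in WT. The main fit had no replicate block, so the printed tests and shares do not use this pairing. With the block, 6150 in place of 5165 genes were called for LPA in WT, and 4328 in place of 3301 for the interaction with LPA. Alternatives were DESeq2 1.42.0, other scalings and filters, fits of the compared groups, thinning, a replicate block and leaving out each library. Positions and promoters are from RefSeq (GRCm38.p6, the assembly of mm10), transcripts from GENCODE, and figures from matplotlib 3.10.9.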

Additional observations from a re-analysis of the deposited data

Results flagged for a closer look

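Among 18 sets of 4 libraries checked for a value far from the other 3 (levels of both receptors and their ratio in 6 groups), 2 were marked, and chance marks about 1 in 20. Fpr2 in WT LPS replicate 4 was 533.1 CPM, below 592.9 to 603.7 CPM in the other 3. The ratio of Fpr2 to Fpr1 in WT Cont replicate 4 was 5.29, above 3.09 to 3.41 in the others, and Fpr1 there rested on 84 counts, the fewest of the WT Cont libraries.

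The effect of LPA differed between the genotypes, by the test of that difference in the fit over all genes, for Fpr1 (-2.28 ± 0.35, KO minus WT) and Fpr2 (-2.30 ± 0.28), which were chosen with this known, and for their neighbour Spaca6 (-1.37 ± 0.23).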

How the results depend on the processing

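Of 320 alternative values of the changes in Fpr1 and Fpr2, 316 differed from the reported value by less than the SD between replicates, and none reversed in a called comparison. The other 4 came with scaling by library totals alone, which gave LPS changes of 5.56 (Fpr1) and 5.06 (Fpr2) in WT and 5.40 and 5.04 in KO. For LPA in WT all alternatives gave 1.88 to 2.19 for Fpr1 and 1.80 to 2.01 for Fpr2, and for the interaction with LPA -2.45 to -2.02 and -2.44 to -2.06. Leaving out single libraries gave the extremes of LPA in WT for both genes.

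Counts of genes called were less steady in the comparisons with few calls: 16 of 160 alternative counts moved by over 1.5 times. For LPA in KO (304 genes), DESeq2 called 461 and the replicate block 554, and omitting 1 library gave 168 (without KO LPA replicate 3) to 310, with 184 and 190 without KO Cont replicates 4 and 3. For KO against WT under LPS (330 genes), DESeq2 called 581, the fit of only these groups 131, thinning 148 and the replicate block 0. Leaving out single libraries gave 65 (without WT LPS replicate 3) to 577 (without WT LPS replicate 1), with 74 and 190 without KO LPS replicates 3 and 4, and 160 without WT LPS replicate 2. For the interaction with LPS (0 genes), DESeq2 called 17, and leaving out libraries gave 0 to 1, the 1 without WT LPS replicate 1. Fpr1 and Fpr2 were not called by any alternative in these 3 comparisons. The replicate block changed no call of either gene in any comparison. The cause of the moved counts was not tested. The lowest count behind a receptor value was 32, of Fpr1 in KO LPA replicate 2.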
